A study of Mus musculus with 18 samples.

Results

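Transcript counts of 9 genes of the Notch pathway were examined in colon crypt epithelial cells of C57BL/6 mice. The 9 genes are the ligand genes Dll1, Dll4 and Jag1, the receptor genes Notch1 and Notch2, the receptor modifier gene Lfng, and the target or target-related genes Hes1, Nrarp and Hes6. They were taken by symbol from a gene count table of 24047 symbols, and all 9 were present and had counts in each of the 18 libraries. Ern2 codes for ERN2, also called IRE1β, a sensor of ER stress found in mucosal epithelia, and the study sequenced mRNA of mice with and without it to ask how this sensor and gut microbes act on goblet cell development. The labels combined 2 genotypes, WT and Ern2-/-, with 3 microbial states, which made 6 groups of 3 libraries each. GF mice were germ free, after both genotypes had been rederived without microbes. COLONIZED mice, which the labels call GF-Colonized, had been germ free until they received a cecal homogenate of WT donors 14 days earlier. CONV mice were raised conventionally. Ages were not given in the labels. The sources used here name no Cre or promoter that would limit the Ern2-/- allele to one cell type. The 9 genes lie on chromosomes 17 (Dll1, chr17:15367354-15376872), 2 (Dll4, chr2:119325784-119335962; Jag1, chr2:137081456-137116644; Notch1, chr2:26457903-26516663; Nrarp, chr2:25180758-25183339), 3 (Notch2, chr3:98013527-98150361), 16 (Hes1, chr16:30064384-30067796), 1 (Hes6, chr1:91411483-91414038) and 5 (Lfng, chr5:140607320-140615545) of build GRCm38. Whether each library came from 1 mouse is not stated in the labels, and p-values measure the spread between these libraries.

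Notch signaling passes between neighboring cells. A Delta or Jagged ligand on one surface binds a Notch receptor on a neighbor, the receptor is cleaved, and its intracellular part enters the nucleus and joins the DNA-binding protein RBPJ to switch on targets such as Hes1. In the intestinal crypt, active Notch keeps progenitors from the secretory fate and holds back the transcription factor ATOH1, and cells that escape it carry Delta ligands and become goblet or enteroendocrine cells.

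The clearest difference among the 9 genes was in Nrarp, which encodes a small ankyrin repeat protein that is switched on by Notch and dampens it. Nrarp rose in COLONIZED-WT over GF-WT mice, by 1.75-fold, with no overlap between the groups, as for 46.0% of all genes tested. It also rose in CONV-WT over GF-WT mice, and in the libraries labelled COLONIZED-Ern2-/- over those labelled GF-Ern2-/-, although these calls depended on single libraries and on the test. The CONV-WT call was also lost with library depth in the model. The ligand gene Dll1 fell in CONV-WT against GF-WT mice, by 3.21-fold, and this call too depended on single libraries, on the test and on library depth in the model. None of the 9 genes was called between the genotype labels in the fits as designed.

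The regions upstream of Nrarp, Lfng, Dll1 and Hes6 are shown because these genes gave the largest differences, and because 2 of them share a sequence. Each run is the 250 bases before an annotated start site in the RefSeq table of build GRCm38.p6, written 5′ to 3′ on the strand of the gene. Capitals mark matches, on either strand, to TGGGAA (the core of the RBPJ site), CACGTG (an E-box bound by HES and other proteins) or CAGCTG (an E-box of the ATOH1 type). The windows lie at chr2:25180508-25180757 (plus strand) for Nrarp, chr5:140607091-140607340 (plus strand) for Lfng, chr17:15376933-15377182 (minus strand) for the farther upstream of 2 start sites of Dll1, and chr1:91414039-91414288 (minus strand) for the farther upstream of 2 start sites of Hes6.
Nrarp: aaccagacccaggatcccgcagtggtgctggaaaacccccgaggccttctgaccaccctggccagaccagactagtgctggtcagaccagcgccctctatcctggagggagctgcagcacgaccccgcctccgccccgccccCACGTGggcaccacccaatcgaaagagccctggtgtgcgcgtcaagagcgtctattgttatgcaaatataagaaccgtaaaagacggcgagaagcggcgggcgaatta
Lfng: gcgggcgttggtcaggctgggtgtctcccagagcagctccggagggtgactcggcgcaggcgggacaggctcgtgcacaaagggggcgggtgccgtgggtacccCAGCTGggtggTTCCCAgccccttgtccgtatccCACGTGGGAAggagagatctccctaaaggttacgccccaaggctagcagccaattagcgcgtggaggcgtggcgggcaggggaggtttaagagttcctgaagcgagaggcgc
Dll1: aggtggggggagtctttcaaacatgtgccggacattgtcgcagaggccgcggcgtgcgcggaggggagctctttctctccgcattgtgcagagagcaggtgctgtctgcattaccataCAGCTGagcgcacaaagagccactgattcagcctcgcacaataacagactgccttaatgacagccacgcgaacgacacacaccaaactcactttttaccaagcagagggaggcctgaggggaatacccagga
Hes6: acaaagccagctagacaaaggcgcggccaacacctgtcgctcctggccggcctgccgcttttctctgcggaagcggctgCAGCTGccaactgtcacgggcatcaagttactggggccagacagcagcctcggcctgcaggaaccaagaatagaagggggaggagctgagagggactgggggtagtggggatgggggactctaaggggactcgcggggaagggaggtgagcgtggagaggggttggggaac

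The Lfng window held TGGGAA at 2 places, 135 bases upstream on the minus strand and 108 bases upstream on the plus strand, and CACGTG at 112 bases upstream, so that the E-box and the nearer RBPJ core overlapped. The Nrarp window held CACGTG at 108 bases upstream and no TGGGAA. Both windows shared the 10-base run CCCACGTGGG, which begins 114 bases upstream of Lfng and 110 bases upstream of Nrarp. It was picked as the longest run shared by these 2 windows, and was found in 30 of 32851 RefSeq promoter windows of this length (0.0913%). How often any 2 windows share a run of this length was not counted, so nothing is read from the sharing. CAGCTG occurred in 1 place each in the windows shown for Lfng, Dll1 and Hes6, at 146, 132 and 171 bases upstream. Of all 32851 windows, 21.6% held TGGGAA, 2.77% held it more than once, 6.02% held CACGTG and 13.0% held CAGCTG. A match is a description of letters and not a binding site. Hes1 had no entry in the promoter table, and the windows of Dll4, Notch1 and Notch2 held none of these 3 motifs. Jag1 held CAGCTG at 82 bases upstream and neither of the other two. Of 2 further motifs searched and not capitalized, GTGGGAA, which contains the RBPJ core, was found for Lfng at 109 bases upstream (5.42% of all windows), and CACGCG, another site bound by HES proteins, for Dll1 (68 bases), Lfng (55), Dll4 (195), Notch2 (42) and Jag1 (2 places) but not for Notch1, Hes6 or Nrarp (7.62% of all windows).

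Some libraries stood apart before any comparison was made. Totals ran from 5865619 to 23154481 counts, and only CONV-WT 3 (8198204) and the libraries labelled CONV-Ern2-/- 2 and 3 (7084267 and 5865619) had under 10000000. CONV-WT 3 also differed from the other 2 CONV-WT libraries in cell type markers. The summed normalized count of 9 secretory lineage markers was 41619 in CONV-WT 3, against 359645 and 309592 in CONV-WT 1 and 2 and from 33977 to 47704 in the libraries labelled CONV-Ern2-/-. Normalized Ern2 counts ran from 1909 to 3100 in WT libraries, and the libraries labelled GF-Ern2-/- 1 and 3 and COLONIZED-Ern2-/- 1 had 2877, 3336 and 2567, within or above that range. The remaining 6 libraries labelled Ern2-/- had from 386 to 1885. Fits without the shallow libraries leave 1 library labelled CONV-Ern2-/- (replicate 1), and fits without those that had Ern2 in the WT range leave 1 labelled GF-Ern2-/- (replicate 2). The lone library is then assumed to vary like the other group, so the p-values of such fits describe that library. Counts over the whole gene may include exons outside the deletion, so genotype directions are given for the labels. Whether a label, or the assignment of a column to a library, is wrong was not tested, and values between the genotype labels hold only as far as these do. The sexes were unevenly spread, with Y-linked expression in 0 of 3 GF-WT, 2 of 3 COLONIZED-WT and 1 of 3 CONV-WT libraries, and in 2, 2 and 3 of 3 libraries labelled GF-, COLONIZED- and CONV-Ern2-/-. With sex in the model, COLONIZED-WT against GF-WT therefore rests on the 1 COLONIZED-WT library without that pattern, the libraries labelled GF-Ern2-/- against GF-WT likewise on 1, and CONV-WT against GF-WT on the 2 CONV-WT libraries without it. Epithelial markers were high in all libraries, with a summed level of 145634 to 223129 over 7 genes. Endothelial markers, examined because vessels also use Dll4, Notch1 and Notch4, summed to between 33.1 and 133 over 7 genes. Of these, Cdh5, Kdr and Emcn were at 0 in most libraries and Eng in 8 of 18, while Pecam1, Esam and Tek had counts in all 18.

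Levels of the genes were first compared with each other, per kilobase of exon in the GENCODE annotation of GRCm38, since longer transcripts collect more counts. The length of a gene joined the exons of all its annotated transcripts (14232 bases for Notch1). It can exceed that of any single transcript, and the levels and their order depend on this choice. As means over 18 libraries, Hes1 was highest at 729 normalized counts per kilobase, followed by Hes6 at 482, Nrarp at 290 and Lfng at 117. The bHLH repressor HES1 is the best known Notch target of the crypt, HES6 counteracts HES1 and is found in secretory progenitors, and LFNG is a Fringe enzyme that adds sugar to the receptor and shifts its choice of ligand. Jag1 (69.7), Dll4 (68.2) and Notch1 (66.1) had similar levels, and their order was not stable, since Jag1 exceeded Dll4 in 7 of 18 libraries and Dll4 exceeded Notch1 in 11. Dll1 (46.5) and Notch2 (17.4) were lowest, and Dll1 exceeded Notch2 in 17 libraries. Other neighbors in this order kept it in 14 to 17 of 18 libraries. Between the lowest and the highest library the normalized count varied 9.54-fold for Dll1, 6.24-fold for Notch2 and 5.49-fold for Lfng, and least for Hes1, at 1.90-fold.

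**Figure D1:**
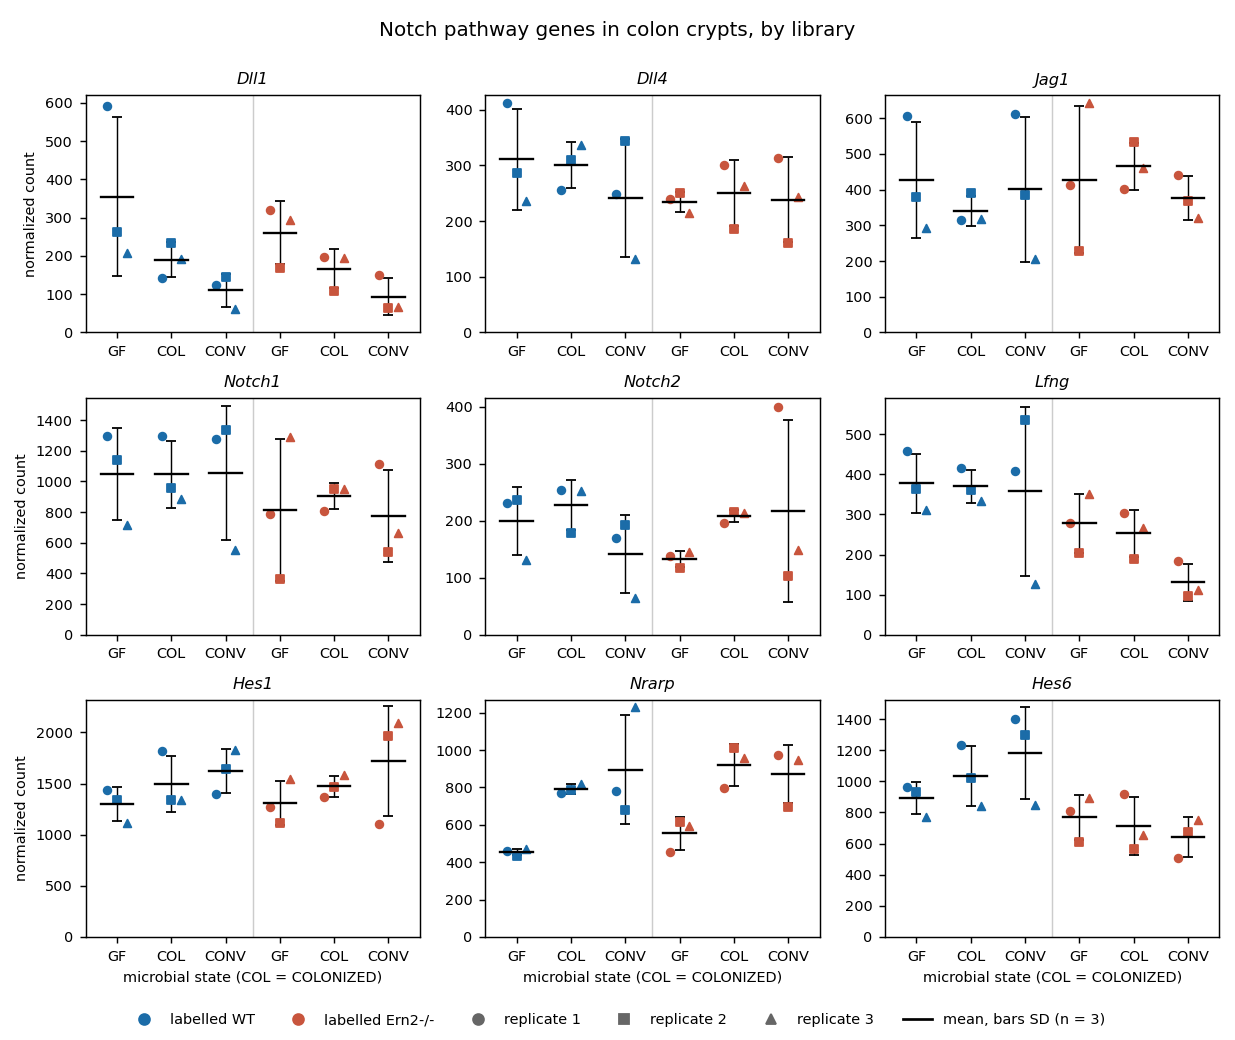
Normalized counts (y axis, linear, from 0) of the 9 genes in each of the 18 libraries, by microbial state (x axis) and genotype label (color), with symbols for replicates and bars for the mean and SD of 3 libraries. Nrarp lay at 435 to 469 in GF-WT and at 768 to 821 in COLONIZED-WT, while Dll1 was highest in GF-WT 1 at 592 and lowest in CONV-WT 3 at 62.1.

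Differences were tested with DESeq2 across all genes, with a call at an adjusted p under 0.01, and with edgeR beside it. Against GF-WT, DESeq2 called 1 of the 9 genes in COLONIZED-WT, where 17.8% of all genes tested were called, and edgeR called 1 (1 at an unadjusted p under 0.05), with 5.92% of all genes. In CONV-WT against GF-WT it called 2, where the share over all genes was 11.0%, and edgeR called 0 (2 at an unadjusted p under 0.05), with 0.159% of all genes. Between the libraries labelled COLONIZED-Ern2-/- and GF-Ern2-/- it called 1, where the share was 7.65%, and edgeR called 0 (2 at an unadjusted p under 0.05), with 0.224% of all genes. The comparisons of COLONIZED and CONV with GF share their GF libraries and are not independent. Between those labelled CONV-Ern2-/- and GF-Ern2-/- DESeq2 called 0, with 3 at an unadjusted p under 0.05, and so did edgeR, also with 3, where 4.10% of all genes were called by DESeq2 and 0.0325% by edgeR. Counts of 0 to 2 of 9 genes describe single genes, and nothing is read from them about the pathway.

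DESeq2 called 0 of the 9 genes between CONV-WT and COLONIZED-WT, with 1 at an unadjusted p under 0.05 (edgeR 0 and 0), where 0.108% of all genes were called. It called 0 between the libraries labelled CONV-Ern2-/- and COLONIZED-Ern2-/-, with 2 at an unadjusted p under 0.05 (edgeR 0 and 1), where the shares were 8.59% and 0.371%. Between the genotype labels DESeq2 called 0 in CONV mice (2 at an unadjusted p under 0.05; edgeR 0 and 2), 0 in COLONIZED mice (3; edgeR 0 and 3) and 0 in GF mice (0; edgeR 0 and 0), where the shares over all genes were 2.87%, 1.20% and 0.0350%. In GF mice 0 of the 9 genes separated the labels without overlap, where 6.10% of all genes did. The median log2 fold change of the 9 genes lay between -0.36 and 0.14 over these comparisons and the 2 interaction tests, and that of all genes tested between -0.02 and 0.02.

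Of the ligands, Dll1 showed the widest spread. DLL1 is the Delta ligand that secretory progenitors of the intestine present to their neighbors. By replicate, GF-WT libraries gave 592, 263 and 208 normalized counts, COLONIZED-WT libraries gave 143, 234 and 193, and CONV-WT libraries gave 124, 146 and 62.1. Libraries labelled GF-Ern2-/- gave 321, 168 and 294, those of COLONIZED-Ern2-/- 198, 109 and 195, and those of CONV-Ern2-/- 149, 64.4 and 66.2. GF means were the highest and CONV means the lowest under both genotype labels, and GF-WT 1 stood far above all other libraries. The 3 CONV-WT values lay below all 3 GF-WT values, as 1 of 2 genes without overlap there, with Nrarp, where 36.2% of all genes tested did not overlap. The 3 values labelled CONV-Ern2-/- likewise lay below those labelled GF-Ern2-/-. COLONIZED values overlapped with GF values under both labels.

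In CONV-WT against GF-WT mice Dll1 fell from 354 ± 208 to 111 ± 43.5 (mean ± SD, n = 3 each), which is -1.68 on the log2 scale (SE 0.50, DESeq2 adjusted p 0.00785; edgeR adjusted p 0.0833). The call was lost without GF-WT 1 (-1.09, DESeq2 adjusted p 0.0885), GF-WT 2 (-1.86, 0.0227), CONV-WT 1 (-1.77, 0.0223) or CONV-WT 2 (-1.93, 0.0145), so that only leaving out GF-WT 1 made the fold smaller among these, and was kept without the shallow CONV-WT 3 (-1.39, 0.00761). In the libraries labelled CONV-Ern2-/- against those labelled GF-Ern2-/- the log2 fold change was -1.46 (SE 0.43, DESeq2 adjusted p 0.0145; edgeR 0.110), with means of 93.3 ± 48.5 and 261 ± 81.3. It passed the threshold without the library labelled GF-Ern2-/- 2 (-1.69, DESeq2 adjusted p 0.00214). It also passed without CONV-Ern2-/- 1 (-2.01, 0.000223), a fit that leaves only the 2 shallow libraries in that group. With the replicate number as a block in the model it also passed (-1.53, DESeq2 adjusted p 0.00313). Without the 2 shallow libraries labelled CONV-Ern2-/- the value was -0.81, and without the 2 labelled GF-Ern2-/- that had Ern2 in the WT range -0.83, each with 1 library left in that group. For COLONIZED-WT against GF-WT it was -0.89 (SE 0.36, DESeq2 adjusted p 0.0468; edgeR 0.167) and came to -0.30 (0.379) without GF-WT 1, and to -1.15 (0.00878) without GF-WT 3. The log2 fold changes of CONV against COLONIZED were -0.78 in WT (SE 0.37, DESeq2 adjusted p 0.543) and -0.80 under the Ern2-/- label (SE 0.40, DESeq2 adjusted p 0.157). Both moved with the setting, to -0.093 and -0.16 with the library total in the model. The second came to -1.35 (DESeq2 adjusted p 0.0033) without the library labelled CONV-Ern2-/- 1, where only the 2 shallow ones are left. It came to -0.15 without those 2, which leaves CONV-Ern2-/- 1 alone.

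Some cell type markers moved with the Dll1 values too. Over 18 libraries log2 Dll1 correlated with Neurod1 at -0.70 (Spearman -0.67) and with Atoh1 at 0.37 (Spearman 0.18). The secretory lineage genes Gfi1, Spdef and Neurog3 gave 0.24, -0.22 and -0.004 (Spearman 0.14, -0.32 and -0.23). The summed mesenchymal markers (8 genes) ran from 5.55 to 15.4 in GF-WT and from 28.3 to 268 in CONV-WT, without overlap. Epithelial sums also separated these groups, at 172302 to 194021 and 145634 to 171357. Under the Ern2-/- label, endothelial (55.2 to 74.2 against 77.3 to 133) and immune sums (113 to 196 against 208 to 304) separated GF from CONV. So did the secretory sums (49658.5 to 108780 against 33977 to 47704), while the other sums overlapped. Their part in the Dll1 difference was not tested.

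Library depth also moved with the Dll1 values. The 3 libraries under 10000000 counts had the 3 lowest normalized Dll1 counts of all 18, and the correlation of log2 Dll1 with log2 total counts over 18 libraries was 0.76 (Spearman 0.64), a description in which depth and CONV state go together. When the model held the library total, the CONV-WT against GF-WT value was -1.27 (DESeq2 adjusted p 0.241) and the COLONIZED-WT against GF-WT value -1.25 (0.00375). Raw counts of Dll1 ran from 24 to 771, and size factors adjust for depth on average but the part of depth in this result was not tested beyond these fits.

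Dll4 and Jag1 varied less. DLL4 is the other Delta ligand of the crypt, used also by endothelium, and JAG1 is a Jagged ligand. Group means of Dll4 lay between 234 and 311 normalized counts, with the highest single library at 412 (GF-WT 1) and the lowest at 131 (CONV-WT 3), and its groups overlapped in all 9 comparisons. Its lowest DESeq2 adjusted p in any comparison was 0.496. Because Dll4 lies opposite to Gm14207 on the other strand and the strand setting of the counting is not given in the sources used here, reads of the pair may not be separated. The same limit applies to Nrarp (Gm38287), Dll1 (A930024N18Rik) and Notch1 (0610009E02Rik and Gm13568), although their opposite genes have no row among the counts. Notch1 also overlaps Mir6996, and Notch2 overlaps Gm42819 and Gm42820, on their own strand.

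Jag1 counts were 314, 390 and 318 in COLONIZED-WT and 402, 532 and 461 in the libraries labelled COLONIZED-Ern2-/-, with all 3 of the latter above all 3 of the former. The log2 fold change was 0.44 (SE 0.17), which did not pass (DESeq2 adjusted p 0.108; edgeR 0.165), and 0.55 (DESeq2 adjusted p 0.0332) without the library labelled COLONIZED-Ern2-/- 1, which had Ern2 in the WT range. Such non-overlap of groups was found for 2 of the 9 genes in this comparison, Jag1 and Lfng, where 29.0% of all genes tested did not overlap. Secretory sums (193206 to 248083 against 88354 to 176961) and endothelial sums (52.4 to 53.5 against 33.1 to 39.6) also separated these groups. Both were lower under the Ern2-/- label. Over 18 libraries log2 Jag1 correlated with the cycling marker Mki67 at 0.59 (Spearman 0.52). The part of cell composition in the Jag1 difference was not tested. Jag1 spread more widely within 3 other groups, from 292 to 606 in GF-WT, from 206 to 611 in CONV-WT and from 229.6 to 642 in those labelled GF-Ern2-/-, and ran from 320 to 442 in those labelled CONV-Ern2-/-.

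The receptor genes showed no called difference. Notch1, the main receptor of crypt stem cells, reached 1294, 1138 and 715 normalized counts for GF-WT, 1298, 961 and 887 for COLONIZED-WT, and 1278, 1334 and 553 for CONV-WT. The GF-Ern2-/- label held 787, 363 and 1291, COLONIZED-Ern2-/- 807, 953 and 954, and CONV-Ern2-/- 1111, 542 and 662. The WT means were alike in the 3 states, at 1049, 1048 and 1055, and the lowest value belonged to the library labelled GF-Ern2-/- 2, which also had the highest summed absorptive colonocyte markers (426112 normalized counts over 7 genes). That library decided some values. The log2 fold change of the libraries labelled GF-Ern2-/- against GF-WT was -0.36 (DESeq2 adjusted p 1), was -0.02 without it, and was -1.51 when the 2 libraries with Ern2 in the WT range were left out, which leaves that library alone in its group with a spread assumed to be like that of GF-WT. In the same way the value for COLONIZED-Ern2-/- against GF-Ern2-/- was 0.15 (DESeq2 adjusted p 0.854), -0.19 without that library and 1.37 without the libraries that had Ern2 in the WT range, where it is again the lone GF library. The values of -1.51 and 1.37 were past the threshold in their fits (DESeq2 adjusted p 0.00312 and 0.000132), which rest on that library.

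NOTCH2, another receptor of the gut, was counted at lower levels. Libraries of the GF-Ern2-/- label gave 138, 117 and 144.9 Notch2 counts, and those of COLONIZED-Ern2-/- gave 196, 216 and 214, without overlap. The log2 fold change was 0.64 (SE 0.22), which did not pass the threshold (DESeq2 adjusted p 0.0312; edgeR 0.0741), and stayed between 0.57 and 0.70 when each library was left out. Without the 3 libraries that had Ern2 in the WT range it was 0.85, with 1 GF library left. The stem and cycling sums also separated these groups (4342 to 8596 against 12500.3 to 15622 over 6 genes). So did the endothelial sums, in the opposite direction (55.2 to 74.2 against 33.1 to 39.6). Over 18 libraries log2 Notch2 correlated with Mki67 at 0.72 (Spearman 0.68). The part of cell composition in the Notch2 difference was not tested. Notch2 and Nrarp were the 2 of 9 genes without overlap there, where 33.8% of all genes tested did not overlap. In WT mice the GF and COLONIZED values overlapped, with 231, 237 and 131 against 253, 178 and 252. The library labelled CONV-Ern2-/- 1 had the highest Notch2 count, 399, and CONV-WT 3 the lowest, 63.9, so the CONV groups spread too widely for a direction.

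**Figure D2:**
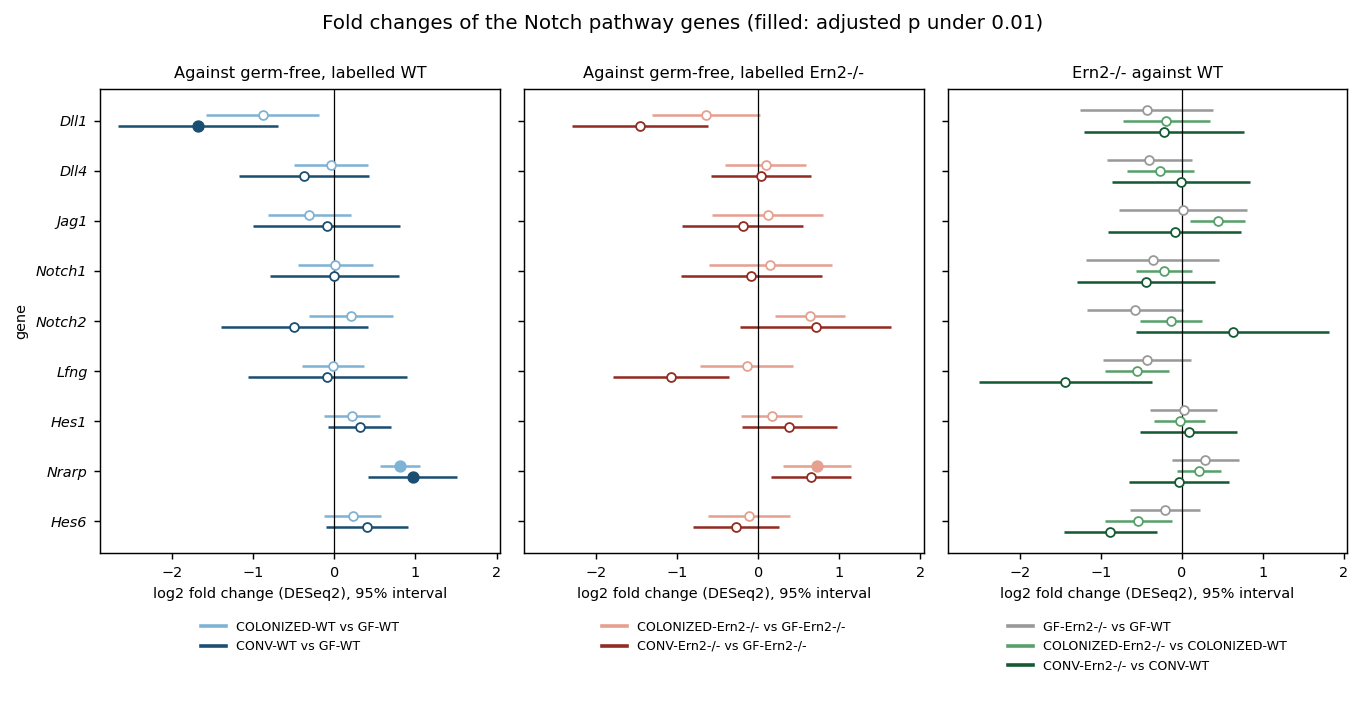
Log2 fold changes (x axis) of each gene (y axis) with 95% intervals from DESeq2, for COLONIZED and CONV against GF in WT (left) and under the Ern2-/- label (middle), and for the genotype labels in each state (right), with filled points for adjusted p under 0.01. Filled points are Nrarp in 3 comparisons, at 0.81, 0.97 and 0.73, and Dll1 in CONV-WT against GF-WT, at -1.68.

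Lfng was lowest under the CONV-Ern2-/- label. Its counts were 184, 97.8 and 110.4 there, against 409, 536 and 126 in CONV-WT, so that the groups overlapped through CONV-WT 3. The log2 fold change was -1.44 (SE 0.54, DESeq2 adjusted p 0.105; edgeR 0.282). Without CONV-WT 3 it was -1.83 (DESeq2 adjusted p 5.96e-06) and in 1 fit of all 18 libraries -1.44 (0.00774). Without the 3 libraries under 10000000 counts, which leaves 1 library under the Ern2-/- label, the value was -1.34. Without any other single library the DESeq2 adjusted p lay between 0.0834 and 0.692.

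In COLONIZED mice Lfng counts were 415, 361 and 333 in WT and 304, 188 and 266 under the Ern2-/- label, without overlap, which is -0.55 in log2 (SE 0.20, DESeq2 adjusted p 0.0844; edgeR 0.162), and -0.71 (0.0150) without the library labelled COLONIZED-Ern2-/- 1. In GF mice they were 458, 362 and 312 in WT and 280, 204 and 351 under the Ern2-/- label, which overlapped. The mean under the Ern2-/- label was thus below the WT mean in all 3 states, and in none of them did the difference pass as designed. Among the libraries labelled Ern2-/-, CONV values lay below all GF values (log2 fold change -1.08, SE 0.36, DESeq2 adjusted p 0.0458; edgeR 0.128) and below all COLONIZED values (-0.92, SE 0.32, DESeq2 adjusted p 0.0303; edgeR 0.0755), where it was the 1 gene of 9 without overlap and 35.9% of all genes tested did not overlap. Without the 2 shallow libraries labelled CONV-Ern2-/- these values were -0.60 and -0.45, with 1 library left under that label. Without that one, CONV-Ern2-/- 1, only the 2 shallow libraries are left under that label, and both values passed (-1.43, DESeq2 adjusted p 0.00386, and -1.28, 0.000528). The first also passed without the library labelled GF-Ern2-/- 2 (-1.26, 0.0094). The 3 shallow libraries had the 3 lowest Lfng counts of all 18, and log2 Lfng correlated with log2 library totals at 0.78 (Spearman 0.49). Cell type markers moved with Lfng as well. Over 18 libraries log2 Lfng correlated with Atoh1, which drives secretory fate, at 0.73 (Spearman 0.70). With Gfi1, a factor gene of secretory progenitors, it correlated at 0.68 (Spearman 0.73), and with Spdef at 0.44 (Spearman 0.47). The enteroendocrine factor genes went both ways, with Neurod1 at -0.57 (Spearman -0.48) and Neurog3 at 0.39 (Spearman 0.28). Absorptive colonocyte markers summed to between 308227 and 415222 over 7 genes under the CONV-Ern2-/- label and to between 34381 and 299371 in CONV-WT, without overlap. Epithelial sums also separated these groups, at 196866 to 212492 against 145634 to 171357. In COLONIZED mice the secretory sums ran from 193206 to 248083 in WT and from 88354 to 176961 under the Ern2-/- label. Endothelial sums there ran from 52.4 to 53.5 and from 33.1 to 39.6, and both separated the labels without overlap. The part of cell composition in the Lfng and Hes6 values was not tested.

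Hes6 was the gene that separated the genotype labels in CONV mice. Its counts were 1398, 1298 and 845 in CONV-WT and 504, 673 and 753 in the libraries labelled CONV-Ern2-/-, so that all 3 of the latter lay below all 3 of the former, with means of 1181 ± 295 and 644 ± 127 (SD, n = 3 each). Hes6 was the 1 gene of 9 without overlap here, and 21.1% of all genes tested did not overlap. The log2 fold change was -0.88 (SE 0.29, DESeq2 adjusted p 0.0472; edgeR 0.193), short of the threshold. It passed without CONV-WT 3 (-1.08, DESeq2 adjusted p 0.000144) and in 1 fit of all 18 libraries (0.00882), while without any other single library the adjusted p ran from 0.122 to 0.499. Without the 3 libraries under 10000000 counts, which leaves 1 library under the Ern2-/- label, the value was -1.39.

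In COLONIZED mice Hes6 counts were 1233, 1022 and 844 in WT and 921, 564 and 658 under the Ern2-/- label, which is -0.54 in log2 (SE 0.21, DESeq2 adjusted p 0.111; edgeR 0.183). The overlap came from the library labelled COLONIZED-Ern2-/- 1, which was among the libraries with Ern2 in the WT range, and without it the value was -0.76 (DESeq2 adjusted p 0.0033). It was -0.39 (0.516) without COLONIZED-WT 1, -0.40 (0.639) without the library labelled COLONIZED-Ern2-/- 2 and -0.27 (0.826) with the library total in the model. In GF mice the values overlapped, at 963, 934 and 773 in WT and 809, 609 and 891 under the Ern2-/- label. Among WT mice Hes6 was 0.40 higher on the log2 scale in CONV than in GF libraries, which did not pass as designed, 0.60 (DESeq2 adjusted p 0.00215) without CONV-WT 3, 0.26 (0.641) without CONV-WT 1 and 0.84 (0.0412) with the library total in the model. Some secretory lineage markers moved with Hes6. Over 18 libraries log2 Hes6 correlated with Atoh1 at 0.76 (Spearman 0.75) and with Gfi1 at 0.76 (Spearman 0.80), both transcription factor genes of secretory progenitors, and with Spdef at 0.71 (Spearman 0.63), but with the enteroendocrine factor genes Neurog3 at 0.24 (Spearman 0.23) and Neurod1 at -0.18 (Spearman -0.22). The summed secretory markers ran from 33977 to 47704 under the CONV-Ern2-/- label, with CONV-WT 3 inside that range, below those of CONV-WT 1 and 2. The absorptive and epithelial sums given beside Lfng separated the same groups in the opposite direction. In COLONIZED mice the secretory sums, also given there, were lower under the Ern2-/- label without overlap. The correlations are over libraries that share group and depth. In bulk crypt RNA, fewer cells of a type and less RNA per cell cannot be told apart.

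For Nrarp the GF-WT libraries had 460.2, 435 and 469 normalized counts, COLONIZED-WT had 768, 785 and 821, and CONV-WT had 779, 678 and 1229. Under the Ern2-/- label GF libraries had 453, 614 and 594, COLONIZED had 795, 1009 and 957, and CONV had 971, 695 and 949. Each of the 6 GF values lay below each of the 12 values from mice with microbes, which ranged from 678 to 1229, while the highest GF value was 614. The share of all genes that separate in this pooled way was not counted. In COLONIZED and CONV against GF, 46.0% and 36.2% of all genes tested did not overlap in WT. Under the Ern2-/- label the shares were 33.8% and 24.3%. Nrarp was the 1 gene of 9 for which the GF and COLONIZED groups of WT mice did not overlap, where 46.0% of all genes tested did not overlap.

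In COLONIZED-WT against GF-WT mice Nrarp rose from 455 ± 17.7 to 791 ± 26.9 (SD, n = 3 each), or by 0.81 in log2 (SE 0.13, DESeq2 adjusted p 9.70e-09; edgeR adjusted p 0.00348). The call was kept in all 6 fits that left out 1 library, with values from 0.77 to 0.84, and when the model held the library total (DESeq2 adjusted p 5.37e-06). With sex in the model, which leaves 1 COLONIZED-WT library to compare, the adjusted p was 0.00202. In CONV-WT against GF-WT it rose by 0.97 (SE 0.28, DESeq2 adjusted p 0.00637; edgeR 0.0533), and CONV-WT 3 supplied the highest value. Without that library the log2 fold change was 0.68 (DESeq2 adjusted p 0.000256), but the call was lost without GF-WT 1 (0.0571), GF-WT 2 (0.0831), GF-WT 3 (0.0544) or CONV-WT 1 (0.0195), or with the library total in the model (0.33, 0.463). Over 18 libraries log2 Nrarp correlated with log2 library totals at -0.52 (Spearman -0.49).

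Under the Ern2-/- label Nrarp rose in COLONIZED against GF libraries by 0.73 on the log2 scale (SE 0.21, DESeq2 adjusted p 0.00844; edgeR 0.0467), from 553 ± 87.9 to 921 ± 112 (SD, n = 3 each). The call was kept without the library labelled GF-Ern2-/- 2 and lost without any of the other 5, with a DESeq2 adjusted p of up to 0.0972 without COLONIZED-Ern2-/- 2, while the value stayed between 0.60 and 0.83. Without the 3 libraries that had Ern2 in the WT range it was 0.66, with 1 GF library left. In CONV against GF libraries under this label the log2 fold change was 0.65 (SE 0.25, DESeq2 adjusted p 0.102; edgeR 0.137), and again without overlap. This was 1 of 3 genes without overlap there, with Dll1 and Lfng, where 24.3% of all genes tested did not overlap. Stem and cycling cell markers moved with Nrarp in the COLONIZED groups. Their summed count over 6 genes was from 5179 to 9089 in GF-WT and 11954 to 13226 in COLONIZED-WT, and from 4342 to 8596 and 12500.3 to 15622 under the Ern2-/- label. Endothelial sums were lower in COLONIZED than in GF libraries without overlap. They ran from 52.4 to 53.5 against 54.5 to 73.6 in WT, and from 33.1 to 39.6 against 55.2 to 74.2 under the Ern2-/- label. Secretory sums ran from 111201 to 157023 in GF-WT and from 193206 to 248083 in COLONIZED-WT. Under the Ern2-/- label they overlapped between GF (49658.5 to 108780) and COLONIZED (88354 to 176961), and they were lower in CONV libraries (33977 to 47704), where Nrarp lay above the GF values. The stem and cycling sum was 14440, 14183 and 6952 in CONV-WT, where the library with the lowest sum, CONV-WT 3, had the highest Nrarp count. Across the 18 libraries log2 Nrarp correlated with Mki67, a cycling marker, at 0.29 (Spearman 0.36). With the enteroendocrine factor genes it correlated at 0.70 (Neurod1, Spearman 0.69) and 0.50 (Neurog3, Spearman 0.57). The other secretory factor genes went both ways, with Atoh1 at -0.28 (Spearman -0.16), Gfi1 at -0.063 (Spearman -0.12) and Spdef at 0.33 (Spearman 0.28). The part of cell composition in the Nrarp difference was not tested.

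Hes1 was the least variable of the 9 genes. GF-WT libraries showed 1435, 1339 and 1111 normalized counts, COLONIZED-WT showed 1815, 1339 and 1338, and CONV-WT showed 1394, 1639 and 1824. Libraries labelled GF-Ern2-/- showed 1271, 1112 and 1546, COLONIZED-Ern2-/- 1373, 1466 and 1581, and CONV-Ern2-/- 1104, 1966 and 2094. Group means ran from 1295 in GF-WT to 1721 under the CONV-Ern2-/- label, with overlap in all 9 comparisons, and the lowest DESeq2 adjusted p was 0.292. The 3 libraries under 10000000 counts had the 3 highest Hes1 counts, the reverse of Dll1 and Lfng, and log2 Hes1 correlated with log2 library totals at -0.75 (Spearman -0.67). Nrarp and Hes1, both targets of Notch, thus did not separate the same groups, and over 18 libraries they correlated at 0.39 (Spearman 0.27).

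**Figure D3:**
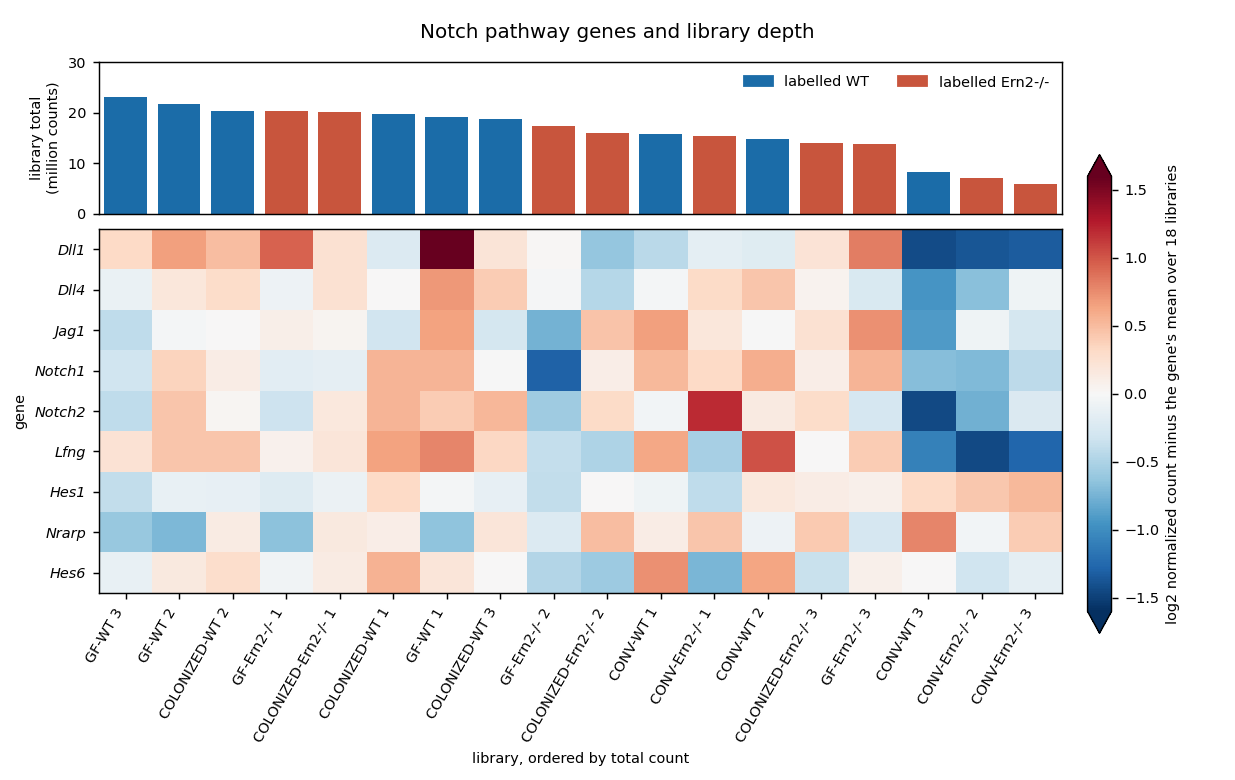
Library totals (bars, from 0) over the log2 normalized count of each gene minus its mean over 18 libraries (color), with libraries ordered by total. The 3 libraries at the right, with totals under 10000000 counts, had the lowest Dll1 and Lfng and the highest Hes1 counts.

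Interaction tests compared the response to microbes under the 2 labels on 12 libraries, and values are the response under the Ern2-/- label minus that in WT. DESeq2 called 0 of the 9 genes for CONV against GF and 0 for COLONIZED against GF, with 0 at an unadjusted p under 0.05 in each (edgeR 0 and 0), where 0.123% and 0.0280% of all genes were called. For COLONIZED against GF the difference in the Nrarp response was -0.07 on the log2 scale, with a 95% interval from -0.50 to 0.36. For CONV against GF it was -0.32 (-1.02 to 0.38). The difference in the Dll1 response was 0.21 (-1.16 to 1.57) for CONV and 0.25 (-0.83 to 1.33) for COLONIZED mice. For Lfng it was -1.0 (-2.26 to 0.26) and -0.11 (-0.79 to 0.57), and for Hes6 -0.67 (-1.37 to 0.02) and -0.33 (-0.95 to 0.30). The Hes6 values ran from -0.87 to -0.52 and from -0.55 to -0.18 when single libraries were left out, and the first was -1.22 without the shallow libraries and -0.33 without those with Ern2 in the WT range, each with 1 library left in a group. For Notch2, which had the largest values of the 9 genes in both tests, it was 1.20 (-0.20 to 2.60) and 0.45 (-0.23 to 1.13), and the first came to 0.39 without the library labelled CONV-Ern2-/- 1. For CONV the intervals of all 5 genes reach beyond 1 log2 unit, and for COLONIZED those of Dll1 and Notch2 do, so these data do not show that the responses were alike.

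Ratios of raw counts within a library need no size factor. They are given as a description, since the pairs were chosen with the counts known. The ratio of Dll1 to Dll4 was 1.08 ± 0.31 (SD, n = 3) for GF-WT, 0.631 ± 0.109 for COLONIZED-WT and 0.465 ± 0.0369 in CONV-WT. Under the Ern2-/- label it was 1.13 ± 0.39, 0.661 ± 0.0752 and 0.384 ± 0.103. Dll1 thus made up less of the Delta counts in mice with microbes under both labels, and 1 GF library, labelled GF-Ern2-/- 2 at 0.675, lay within the range of the COLONIZED libraries. The ratio of Nrarp to Hes1 was 0.356 ± 0.0575 in GF-WT against 0.541 ± 0.103 in COLONIZED-WT and 0.549 ± 0.130 in CONV-WT. Under the Ern2-/- label it was 0.431 ± 0.106, 0.624 ± 0.0571 and 0.562 ± 0.280, where the CONV values (from 0.354) overlapped the GF values (up to 0.552). In WT the lowest CONV value (0.414) lay below the highest GF value (0.422), and the lowest COLONIZED value (0.423) lay just above it. The ratio of Hes6 to Hes1 was 0.688 ± 0.0146, 0.691 ± 0.0672 and 0.753 ± 0.272 in GF-, COLONIZED- and CONV-WT, and 0.587 ± 0.0454, 0.491 ± 0.157 and 0.386 ± 0.0618 under the Ern2-/- label. Its values overlapped between the labels in COLONIZED but not in GF or CONV mice. Other computed ratios, not shown, also separated the labels. These were Lfng to Hes1 (GF, COLONIZED), Notch1 to Notch2 (CONV) and Jag1 to Dll4 (COLONIZED), while Dll1 to Hes1 overlapped in each state. How often ratios of other gene pairs separate the labels was not counted.

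**Figure D4:**
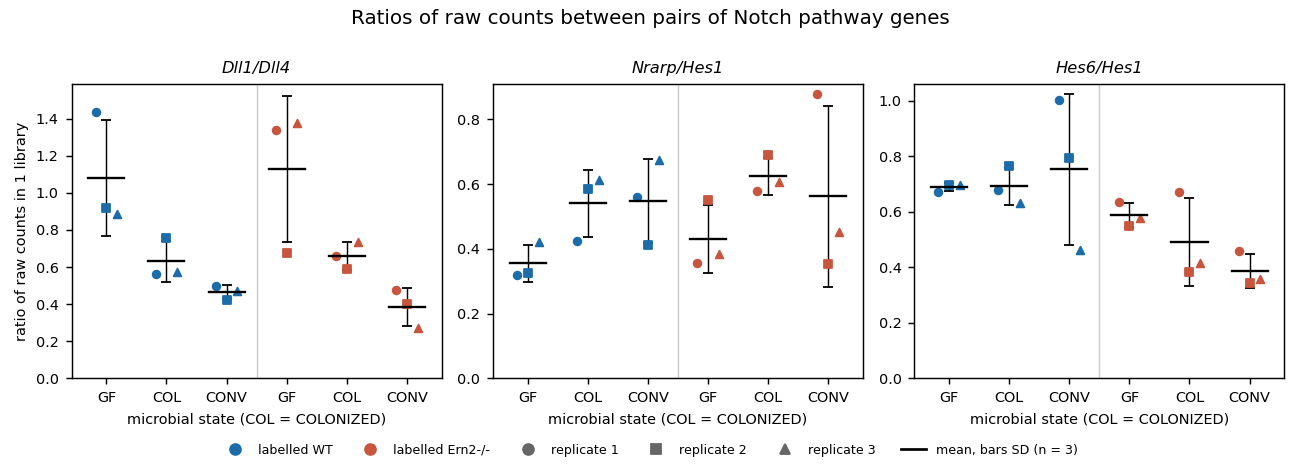
Ratios of raw counts within each library (y axis, linear, from 0) for Dll1 to Dll4, Nrarp to Hes1 and Hes6 to Hes1, by microbial state (x axis) and genotype label (color), with bars for the mean and SD of 3 libraries. The Dll1 to Dll4 ratio lay between 0.885 and 1.44 in GF-WT and between 0.425 and 0.498 in CONV-WT.

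The genes most like each member over the 18 libraries were sought among 10851 genes with a mean normalized count of at least 50, by the Pearson correlation of log2 counts. Dll1 was most like Slc46a1 (0.93), Slc36a1 (0.92) and Slc5a6 (0.92), all 3 transporter genes of the solute carrier families. Dll4 was most like Slc2a8 (0.81), Tmem9 (0.81) and Gemin4 (0.80). Jag1 was most like Ripk2 (0.87), Zfp568 (0.86) and Sf3b1 (0.85), Notch1 like Mycbp2 (0.94), Uhrf1bp1 (0.92) and Prr12 (0.91), and Notch2 like Ift140 (0.89), Slc16a13 (0.89) and Ubr4 (0.88). Lfng was most like Rgmb (0.96), a BMP co-receptor gene, Sorcs2 (0.93) and D930015E06Rik (0.92). Hes1 was most like Gps2 (0.94), Upf3b (0.92) and Mphosph8 (0.92), Hes6 like Npdc1 (0.92), Snhg18 (0.91) and Ptov1 (0.89), and Nrarp like Fah (0.92), Cpne2 (0.91) and Poc1b (0.91). None of the 9 was among the 3 genes most like another. Between members the highest Pearson correlations were those of Dll4 with Notch2 (0.73, Spearman 0.69) and of Dll1 with Lfng (0.73, Spearman 0.50). The lowest was that of Dll1 with Nrarp (-0.70, Spearman -0.66). By Spearman, Hes6 with Lfng (0.83) and Notch1 with Lfng (0.82) were highest. All of these are over libraries that share group and depth.

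The rest of the pathway was read from lists of 50 genes, all in the table, of which 35 had a mean over the groups of at least 10 normalized counts. DESeq2 called 0 of the 41, 49 and 43 tested between the genotype labels in CONV, GF and COLONIZED mice, where 2.87%, 0.0350% and 1.20% of all genes were called, with 7, 0 and 7 at an unadjusted p under 0.05 (edgeR 0 called, with 5, 0 and 7). It called 0 of 50 in each interaction (0.123% and 0.0280% of all genes; 2 and 3 at an unadjusted p under 0.05; edgeR 0 called, with 0 and 2). It also called 0 of 42 between the libraries labelled CONV-Ern2-/- and GF-Ern2-/- (4.10% of all genes; 4 at an unadjusted p under 0.05; edgeR 0 called, with 5) and 0 of 46 between CONV-WT and COLONIZED-WT (0.108%; 3; edgeR 0 called, with 3). In COLONIZED-WT against GF-WT, DESeq2 called 8 of the 44 that were tested, 4 in each direction, where 17.8% of all genes were called. Higher were the ligand genes Jag2 (log2 fold change 1.20, from 27.7, 44.1 and 47.9 to 101, 62.4 and 110.3 normalized counts) and Dlk1 (3.44, from 1.5, 1.4 and 5.6 to 13.5, 43.3 and 35.7), the Fringe gene Rfng (0.48) and Dtx3 (1.64), a Deltex gene. Lower were Neurl1b (-1.12), whose product takes up ligands, Ncstn (-0.61), a subunit of the γ-secretase that cleaves the receptor, and the coactivator genes Maml3 (-0.61) and Ep300 (-0.52). By edgeR only Maml3 and Dtx3 were called. With sex in the model, where 1 COLONIZED-WT library is left to compare and 1.81% of all genes were called, Dlk1 was the 1 of the 8 still called.

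In CONV-WT against GF-WT, DESeq2 called 2 of 45 tested, where 11.0% of all genes were called, both lower, Maml3 (-0.62, adjusted p 0.00772) and Aph1a (-0.62, adjusted p 0.00901), another γ-secretase subunit gene, and edgeR called 0 of the 50. Between the libraries labelled COLONIZED-Ern2-/- and GF-Ern2-/- it called 3 of 40 tested, where the share over all genes was 7.65%, with Jag2 (1.46) and Notch3 (2.72) as higher and Neurl1b (-0.69) as lower. Notch3 counts were low, between 2 and 6 normalized counts in GF and 18.5, 30.6 and 24.1 in COLONIZED libraries. Between those labelled CONV-Ern2-/- and COLONIZED-Ern2-/- it called 4 of 39 tested, where the share was 8.59%, with Neurl1b (0.79), Numb (0.50), whose product inhibits Notch, and Hes2 (1.65) as higher and Notch4 (-1.74) as lower. edgeR called 0 of the 50 in both of these. Notch4 is best known from endothelium, and the endothelial markers summed to between 33.1 and 39.6 in COLONIZED and between 77.3 and 133 in CONV libraries of this label. Within that list Cdh5, Kdr and Emcn were at 0 in 15, 13 and 14 of 18 libraries, Eng in 8, and Pecam1, Esam and Tek were at 0 in 0 of 18.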

How the data were processed

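Gene counts were deposited by the authors as 1 table of 24047 symbols and 18 libraries of colon crypt epithelium (3 per group). Per the methods and processing notes, stranded mRNA libraries (KAPA) were read with 75 cycles of single-end sequencing, aligned with STAR to mm10 and counted in the VIPER pipeline; versions and the strand setting of the counting are not given in the sources used here. Columns were assigned by the column number in the labels, with the gene name column counted as 1, and no column lacked a sample. The 9 genes and all lists were chosen with earlier results of these data known.

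Each comparison was fitted on its 6 libraries (12 for interactions) over all genes with the DESeq2 Wald test (1.42.0, R 4.3.3), with calls at a p under 0.01 after Benjamini-Hochberg adjustment, and with the quasi-likelihood test of edgeR (4.0.16). Both were tested on simulated data. Normalized counts use DESeq2 size factors over 18 libraries. All 9 genes are named throughout, other pathway genes where called, and the 3 most alike genes per member (log2 of normalized count plus 1). Alternatives were other size factors and filters, 1 fit of all libraries, the replicate block, leaving out libraries and, added after seeing the data, sex or library total as a covariate and leaving out doubted libraries. Library totals of 5865619 to 23154481 counts limit the precision. Fold changes are the first group named over the second.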

Additional observations from a re-analysis of the deposited data

How the results depend on the processing

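Depth was a limit, since 3 of the 6 CONV libraries had under 10000000 counts, with as few as 24 counts of Dll1. Under all alternatives run, Nrarp in COLONIZED-WT against GF-WT stayed called. The number of the 9 genes called moved as follows, with the share of all genes called in the same fit beside it. In CONV-Ern2-/- against CONV-WT it was 2 (Hes6 and Lfng) in 1 fit of all 18 libraries (5.14%) and 2 without the 3 shallow libraries (11.4%; 1 library left under the Ern2-/- label), against 0 as designed (2.87%). Without the libraries labelled Ern2-/- that had Ern2 in the WT range it was 1 (Notch1) in GF-Ern2-/- against GF-WT (4.82%; 1 library left under the Ern2-/- label), 1 in COLONIZED-Ern2-/- against GF-Ern2-/- (11.2%; Notch1 in place of Nrarp, also with 1 GF library left) and 1 (Hes6) in COLONIZED-Ern2-/- against COLONIZED-WT (5.26%). For CONV-WT against GF-WT it was 0 with edgeR (0.159%), 0 with sex (7.08%; much the same fit as leaving out CONV-WT 1) and 0 with library total (8.18%) as covariates, but 3 (21.5%; Hes6 added) without the shallow library, against 2 as designed. For COLONIZED-WT against GF-WT the library total gave 2 (10.4%; Dll1 and Nrarp), and for CONV-WT against COLONIZED-WT 2 (6.39%; Jag1 at 1.05 and Lfng at 1.05 in log2). For COLONIZED-Ern2-/- against GF-Ern2-/- it was 0 with edgeR (0.224%), 0 with no filter (5.56%) and 0 with sex (7.13%). When single libraries were left out, the count ranged from 0 to 2 in CONV-Ern2-/- against CONV-WT (2 without CONV-WT 3, 13.1%). It was 0 to 0 in GF-Ern2-/- against GF-WT (up to 0.0704%). It was 0 to 1 in COLONIZED-Ern2-/- against COLONIZED-WT (1 without COLONIZED-Ern2-/- 1, 5.26%). In CONV-WT against GF-WT it was 0 to 3 (3 without CONV-WT 3, 21.5%, and 4.47% to 6.98% in the other fits). In COLONIZED-WT against GF-WT it was 1 to 2 (2 without GF-WT 3, 15.6%). In CONV-Ern2-/- against GF-Ern2-/- it was 0 to 2 (2 without GF-Ern2-/- 2, 7.40%, or CONV-Ern2-/- 1, 6.32%). In COLONIZED-Ern2-/- against GF-Ern2-/- it was 0 to 1 (1 without GF-Ern2-/- 2, 10.4%). It was 0 to 0 in CONV-WT against COLONIZED-WT (up to 1.59%) and 0 to 4 in CONV-Ern2-/- against COLONIZED-Ern2-/-. The 4 (Dll1, Notch1, Hes1 and Lfng) came without CONV-Ern2-/- 1 (21.3%), a fit that leaves only the 2 shallow libraries in that group. Both interactions kept 0 throughout. Of 99 fold changes and interactions of the 9 genes, 10 changed sign under some planned setting, 46 when single libraries were left out and 44 under the added settings, and 0 of these were called as designed. The values that follow are for the 34 with an unadjusted p under 0.05 as designed, called in some setting, or given as interactions. Among these, directions turned, in log2, for Notch1 in GF-Ern2-/- against GF-WT with sex (0.32, with 1 library left to compare), and for Lfng in CONV-WT against COLONIZED-WT with the library total (1.05) and without the shallow libraries (0.34). In CONV-Ern2-/- against COLONIZED-Ern2-/- they turned for Notch1 (0.21 with the library total, 0.31 without the shallow libraries) and Hes1 (-0.43 and -0.40). Interaction values turned for Nrarp in CONV without the shallow libraries (0.12) and Lfng in COLONIZED without the libraries with Ern2 in the WT range (0.17). Leaving out single libraries moved the value across 0 for Notch1 in COLONIZED-Ern2-/- against GF-Ern2-/- (-0.19 to 0.65), Jag1 (-0.21 to 0.53) and Lfng (-0.47 to 0.34) in CONV-WT against COLONIZED-WT, and the interactions of Dll1 (CONV -0.38 to 0.48, COLONIZED -0.34 to 0.52), Lfng (COLONIZED -0.28 to 0.084) and Nrarp (COLONIZED -0.20 to 0.028). The causes were not tested.

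The rule for pairing, that same-numbered libraries correlate at over 0.1 for all 3 numbers, was met in 0 of 9 comparisons, with COLONIZED-Ern2-/- against GF-Ern2-/- (0.49, 0.090 and 0.24) and CONV-WT against COLONIZED-WT (0.19, 0.089 and 0.13) nearest to it. As a hint from the data, a library matched its own number best in 43 of 90 cases, where 30 would match if the numbers carried nothing. With the replicate block 1 gene (Dll1, -1.53 in log2, DESeq2 adjusted p 0.00313) was called in CONV-Ern2-/- against GF-Ern2-/- (4.09% of all genes), and the Dll1 interaction for CONV was -0.033.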
